A study of Mus musculus with 6 samples.

Results

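Synaptotagmins, syntaxins, vesicle-associated membrane proteins (VAMPs), SNAP proteins and syntaxin-binding proteins were examined in forebrain RNA of mice after water avoidance stress (WAS). The members were all symbols that consist of Syt, Stx, Vamp or Stxbp and a number, together with Snap23, Snap25, Snap29 and Snap47, with at least 10 counts in every library. Of the 23282 entries in the deposited tables, 50 had such a symbol and 44 reached 10 counts in each of the 6 libraries. These were 14 of 17 synaptotagmins, 13 of 15 syntaxins, 6 of 7 VAMPs, all 4 SNAPs and all 7 syntaxin-binding proteins. Syt10, at 16, 15 and 20 counts in WAS replicates 1 to 3 against 11, 10 and 20 in control replicates 1 to 3 (the order used throughout), lay just inside this limit. Syt17 lay just outside it with 14, 18 and 18 counts against 4, 10 and 7, and Syt15 with 6, 3 and 8 against 6, 4 and 9. Stx11, Stx19 and Syt8 had at most 6 counts in every library, and Vamp7 was listed at 0 in all 6, which allows up to 3 counts per library.

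A vesicle fuses with its target membrane when SNARE proteins on both sides wind into a bundle of helices that pulls the membranes together. At the synapse, the vesicle carries VAMP2, also called synaptobrevin, or its paralog VAMP1, and the plasma membrane carries a syntaxin and SNAP25. Synaptotagmins on the vesicle bind calcium and couple its entry to fusion, and syntaxin-binding proteins hold syntaxins or compete for the SNAREs. Other members of the same families serve fusion inside the cell, between endosomes, the Golgi apparatus, the endoplasmic reticulum and lysosomes.

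The animals were male C57BL/6J mice of 8 to 10 weeks for which no genetic alteration is named. The 3 mice labelled WAS were kept for 1 h on a small platform surrounded by warm water, and the 3 labelled control stood for the same time on such a platform in a container without water. All were killed directly afterwards, so that 1 h of treatment was the single time point, and RNA came from the forebrain without olfactory bulbs and cerebellum. In such bulk tissue, fewer cells of a type and less RNA per cell cannot be told apart. Groups follow the sample labels. The count columns of the WAS libraries have headings that begin with WC, and those of the control libraries have headings that begin with WS. Since no source used here defines these headings, every direction is that of the libraries as labelled, and an exchange of the labels would reverse it.

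The libraries were made by QuantSeq 3′ mRNA-Seq, which sequences each polyadenylated transcript near its 3′ end, and held between 9248520 and 10502029 counts. Levels are given as CPM (counts relative to a fixed library total) after scaling by edgeR's TMM method, without division by transcript length, because 3′ sequencing gives about 1 fragment for each transcript whatever its length. At this depth a level of 1 CPM corresponds to about 9.35 counts in the smallest library. Neuron markers summed to between 3479 and 3928 CPM, and the cerebellum and olfactory bulb lists were not at 0 as a whole. Of 6 cerebellum markers, 5 were tested and the sum was 424 to 489 CPM in WAS replicates 1 and 3 and 670 to 854 CPM in the other 4 libraries, most of it from Pcp4 (3102 to 6705 counts) and Calb1 (772 to 1116 counts), genes that forebrain neurons also express. Pcp2 of Purkinje cells had 191 to 252 counts, and Gabra6 of cerebellar granule cells at most 1. Of 4 olfactory bulb markers in the tables, 2 were tested and the sum was at most 5.65 CPM, with Cdhr1 at 18 to 34 counts, Eomes at 4 to 24 and Omp at most 5. The libraries labelled WAS were not alike in regional markers. The 9 markers of midbrain and hindbrain summed to 95.6 and 108 CPM in WAS replicates 1 and 3, to 13.5 CPM in WAS replicate 2 and to between 9.29 and 12.9 CPM in the control libraries. Of these 9 genes, 6 passed the filter of the test, and Slc6a5 and Hoxb5 were at 3 counts or fewer in every library. The 7 striatum markers summed to 128 and 286 CPM in WAS replicates 1 and 3, against 1536 CPM in WAS replicate 2 and 775 to 1120 CPM in the control libraries. Of these 7 genes, 6 passed the filter, and Drd2 had at most 1 count in every library. The 7 cortex and hippocampus markers summed to 1008 to 1074 CPM in the libraries labelled WAS and 1107 to 1274 CPM in those labelled control. Results for single members are therefore given with and without WAS replicates 1 and 3 where these libraries bear on them, and the part of the regional markers in the results was not tested.

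The members took 1.05% to 1.13% of all counts, and their levels spanned 3 orders of magnitude, from Syt10 at 1.54 CPM to Syt1 at 2523 CPM as means of the 6 libraries. Among the most abundant were Syt1, Snap25, Syt11, Vamp2 and Syt7, and they include the main calcium sensor of the vesicle and most of the core of the synaptic fusion machine. In the plot of CPM by family the points of both groups lie on top of each other for most genes.

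**Figure D1:**
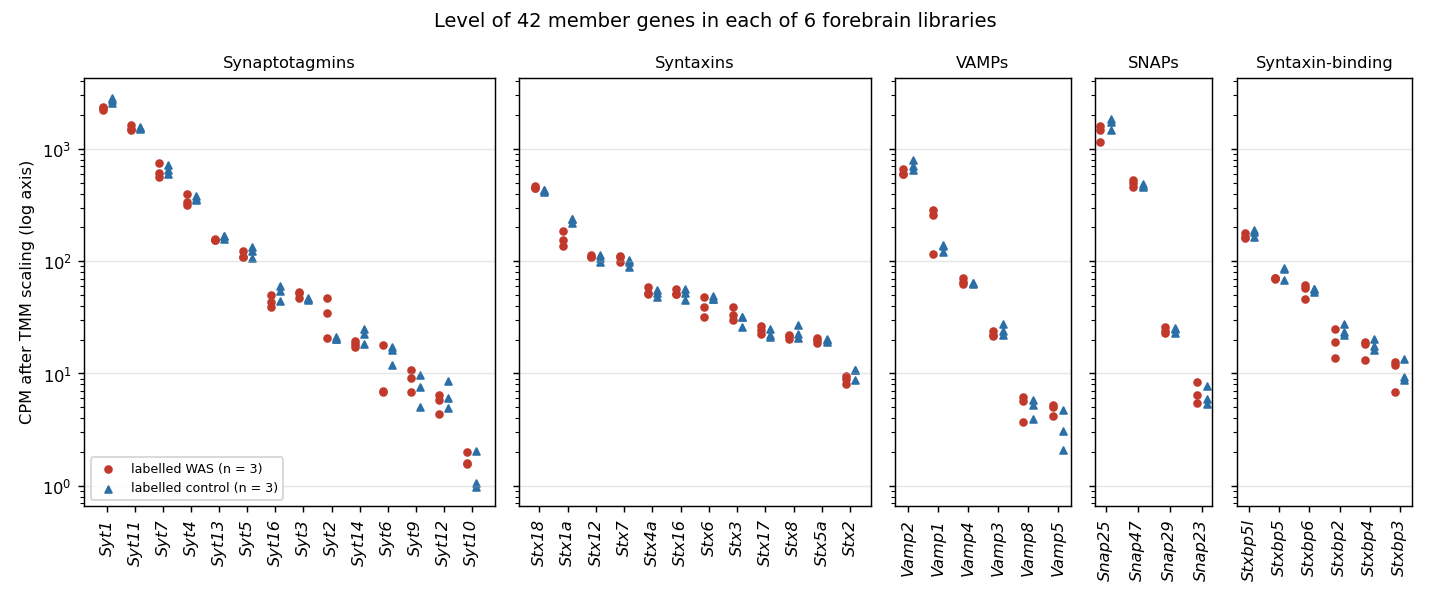
Level of 42 member genes in CPM after TMM scaling (vertical log axis), arranged by family and by mean level, with 1 point per library (circles, 3 libraries labelled WAS; triangles, 3 labelled control). The libraries of both groups lie close together for most genes, and the WAS libraries of Syt2, Vamp1 and Syt6 are spread widest.

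In edgeR's quasi-likelihood F-test, with p-values adjusted by Benjamini-Hochberg over all 15239 genes tested, 0 of 44 members and 0 of all genes (0%) passed an adjusted p of 0.05. All 44 members had passed the filter on low values. At an unadjusted p under 0.05 there were 4 of 44 members (9.09%), beside 7.24% of all genes tested. Syt2 and Vamp1 were the 2 members on the higher side in the libraries labelled WAS, where 3.85% of all genes lay, and Stx1a and Syt1 the 2 on the lower side, where 3.40% lay. DESeq2 as another test placed 1 of 44 members, Stx1a, past an adjusted p of 0.05, beside 22 of the 15239 genes (0.144%). With a fold change of at least 1.5 added to the unadjusted p, 2 of 44 members remained, Syt2 and Vamp1, beside 2.49% of all genes (1.82% higher and 0.676% lower). All libraries of 1 group lay above all of the other in CPM for 6 of 44 members (13.6%), beside 11.7% of all genes. Stx18 and Syt3 were the 2 members with all WAS libraries above the control libraries (6.12% of all genes), and 4 members, among them Stx1a, Syt1 and Syt13, had all WAS libraries below (5.55%). Counted in either direction, each of these shares lay within about 1 gene of the background share of 44 genes.

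Most members differed little between the groups. The log2 fold change, the libraries labelled WAS relative to those labelled control, was within 0.2 of 0 for 27 of 44 members (61.4%), beside 64.3% of all genes tested. The median size of the log2 fold change, without its sign, was 0.13 for the members and 0.13 for all genes. In sign, 17 members were above 0 and 27 below, with a median of -0.024, whereas 50.2% of all genes were above 0, with a median of 0.00088. By family the median log2 fold change was -0.070 for synaptotagmins, 0.052 for syntaxins, 0.062 for VAMPs, 0.029 for SNAPs and -0.095 for syntaxin-binding proteins.

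**Figure D2:**
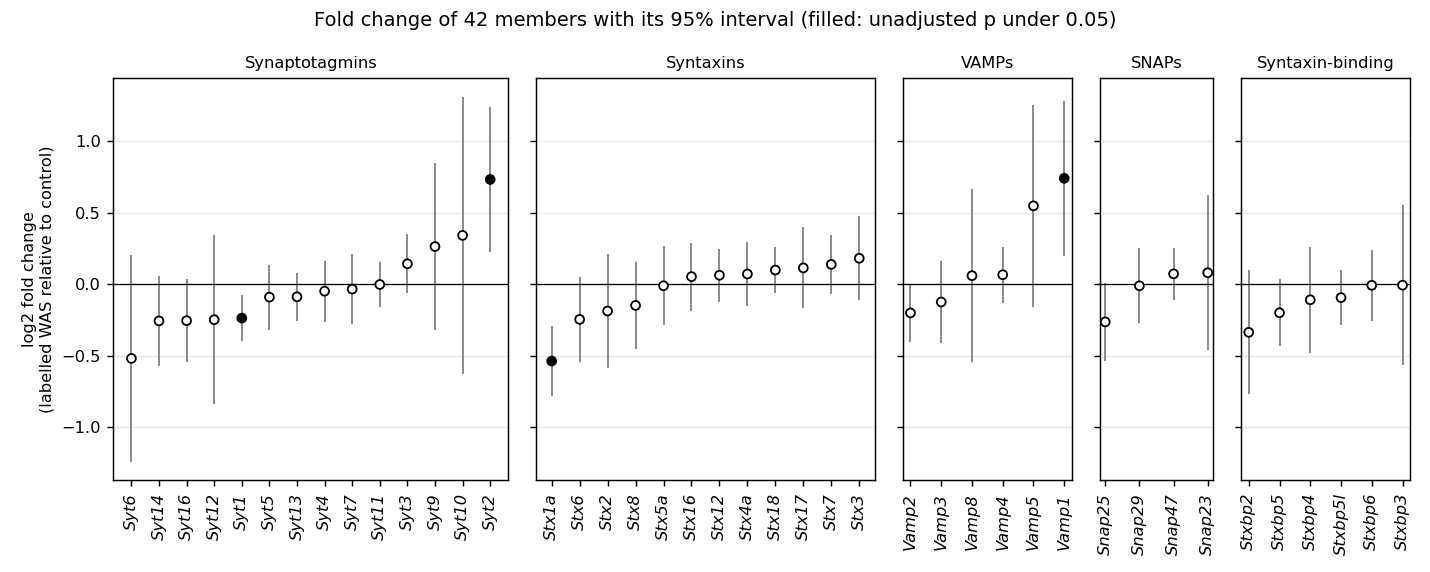
Log2 fold change of 42 members (vertical axis, libraries labelled WAS relative to labelled control, n = 3 each) with its 95% interval as a grey line, by family and in rising order. Filled points mark the 4 members with an unadjusted p under 0.05, and the intervals of the others include 0.

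The promoters of the 4 members with an unadjusted p under 0.05 are shown because these genes carry the results below. Each is the 200 bases before the RefSeq transcription start nearest to the start of the GENCODE M21 gene, read 5′ to 3′ on the strand of the gene (build GRCm38.p6, the same assembly as mm10), with GC boxes (GGGCGG, or its reverse complement CCGCCC) in capitals. The Syt1 sequence lies at chr10:109010976-109011175 on the minus strand, that of Syt2 at chr1:134646412-134646611, that of Vamp1 at chr6:125215381-125215580 and that of Stx1a at chr5:135023282-135023481, the last 3 on the plus strand.
Syt1: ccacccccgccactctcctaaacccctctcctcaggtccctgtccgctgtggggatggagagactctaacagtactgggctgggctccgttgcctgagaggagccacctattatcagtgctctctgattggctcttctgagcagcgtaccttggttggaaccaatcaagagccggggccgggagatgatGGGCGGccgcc
Syt2: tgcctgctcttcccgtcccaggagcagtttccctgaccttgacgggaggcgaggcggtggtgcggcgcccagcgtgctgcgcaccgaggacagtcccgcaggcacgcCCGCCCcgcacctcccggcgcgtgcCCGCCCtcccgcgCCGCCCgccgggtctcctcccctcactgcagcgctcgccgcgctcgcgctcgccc
Vamp1: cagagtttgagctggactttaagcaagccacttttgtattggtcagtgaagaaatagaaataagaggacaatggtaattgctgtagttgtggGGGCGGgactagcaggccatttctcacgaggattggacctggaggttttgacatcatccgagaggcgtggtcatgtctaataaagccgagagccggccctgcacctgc
Stx1a: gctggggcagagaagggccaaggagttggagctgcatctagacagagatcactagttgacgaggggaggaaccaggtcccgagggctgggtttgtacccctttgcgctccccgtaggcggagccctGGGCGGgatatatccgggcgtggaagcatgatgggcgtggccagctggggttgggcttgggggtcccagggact

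GC boxes bind Sp-family factors and are common in promoters of genes with CpG islands. Syt2 held 3 of them among these 200 bases and Syt1, Vamp1 and Stx1a 1 each, and of all 32851 RefSeq promoters compared, 31.05% held at least 1 on either strand. Syt2 also had the highest base content of G and C, with 77.5% and 29 CpG dinucleotides, against 61.0% and 8 in Syt1, 64.0% and 9 in Stx1a, and 49.5% and 6 in Vamp1. The cAMP response element TGACGTCA (1.47% of all promoters), the TATA box TATAAA (9.96%) and TTCAGCACC, the left part of the RE1 element of neuronal genes (0.2374%), were searched on both strands and had no match in these 4 windows. RefSeq promoters were matched for 34 of the 44 members.

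Syt1, which encodes the main calcium sensor of fast transmitter release, was the most abundant member. The gene lies at chr10:108497650-109010982 on the minus strand (mm10). It had 23655, 22314 and 22646 counts in the WAS replicates, and 27122, 29196 and 26802 counts in the control replicates. All 3 libraries labelled WAS were below all 3 labelled control, both in counts and in CPM. The means were 2315 ± 73.2 CPM (SD, n = 3) and 2730 ± 138 CPM (SD, n = 3), a log2 fold change of -0.24 (SE 0.073, unadjusted p = 0.00715, adjusted p = 0.539 by edgeR). Leaving out each library in turn kept it between -0.28 and -0.20 with an unadjusted p under 0.05 in each of the 6 fits, and without WAS replicates 1 and 3 it was -0.20 (unadjusted p = 0.0667). On quantile-normalized log2 counts, the normalization named in the study's methods, it was -0.047 with an unadjusted p of 0.557 by limma. With DESeq2 size factors in edgeR it was -0.24 (unadjusted p = 0.00672, adjusted p = 0.537). The DESeq2 test also gave -0.24 (unadjusted p = 0.00470, adjusted p = 0.323). The lower level of Syt1 was thus present with TMM and with DESeq2 size factors, but nearly absent on quantile-normalized counts.

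Syt2 encodes the fast calcium sensor that takes the place of Syt1 in many brainstem, midbrain and fast-spiking inhibitory neurons. The gene lies at chr1:134646677-134762593 on the plus strand. It had 479, 195 and 348 counts in the WAS replicates, and 213, 207 and 206 counts in the control replicates. WAS replicates 1 and 3 were above every control library, while WAS replicate 2, with 20.9 CPM, lay within the control range of 20.2 to 21.2 CPM. The means of 34.1 ± 13.1 CPM (SD, n = 3) and 20.6 ± 0.518 CPM (SD, n = 3) gave a log2 fold change of 0.73 (SE 0.23, unadjusted p = 0.00860, adjusted p = 0.550). Without WAS replicate 1 it was 0.43, without WAS replicate 2 it was 0.98 (adjusted p = 0.00201), and without WAS replicates 1 and 3 it was 0.015. The difference therefore rests on the 2 libraries in which the midbrain and hindbrain markers were high.

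Syt6, a synaptotagmin with little known role in transmitter release, showed the reverse order over the same libraries. It had 71, 167 and 69 counts in the WAS replicates against 124, 166 and 167 in the control replicates. WAS replicates 1 and 3, where the striatum markers were also low, were below every control library, and WAS replicate 2 was above them in CPM. The log2 fold change was -0.52 (SE 0.33, unadjusted p = 0.142, adjusted p = 0.801), the lowest among the synaptotagmins. It was -1.13 without WAS replicate 2 (adjusted p = 0.0117) and 0.24 without WAS replicates 1 and 3. Exons of Syt6 share 505 of their 5828 bases with Atg4a-ps on the other strand. Since the strand setting of the counting is not given in the sources used here, reads from the shared bases cannot be told apart.

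The other abundant synaptotagmins were nearly level. Syt11, which binds no calcium and acts in endocytosis and vesicle trafficking, had 16593, 13997 and 15069 counts in the WAS replicates and 16545, 15462 and 14961 in the control replicates. The log2 fold change of Syt11 was -0.0034 with a 95% interval from -0.16 to 0.16, the smallest size in the family. Syt7, a slow calcium sensor with high affinity, was at 639 ± 96.9 CPM (SD, n = 3) against 655 ± 56.5 CPM (SD, n = 3), a log2 fold change of -0.036. Syt4, which is induced by neuronal activity in some settings, was at 352 ± 43.3 CPM (SD, n = 3) against 365 ± 16.6 CPM (SD, n = 3), a log2 fold change of -0.050. Both groups overlapped for these 3 genes. Syt4, Syt7 and Syt12 also share exonic bases with a gene on the other strand (566 of 3892, 384 of 7487 and 950 of 5539). Reads from those bases are uncertain in the same way as for Syt6.

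Among the synaptotagmins of middle level, Syt3 and Syt13 had groups that did not overlap in CPM. Syt3, a sensor found in the postsynaptic membrane and at fast synapses, was at 52.0, 47.5 and 53.1 CPM in the WAS replicates and 45.4, 46.2 and 46.7 CPM in the control replicates. This gave a log2 fold change of 0.14 (SE 0.094, unadjusted p = 0.160, adjusted p = 0.815), and the lowest WAS library stood less than 1 CPM above the highest control library. Syt13, which does not bind calcium, was at 155, 154 and 157 CPM against 167, 168 and 159 CPM, a log2 fold change of -0.089 (SE 0.077, unadjusted p = 0.267, adjusted p = 0.879). The remaining members of the family, Syt5, Syt9, Syt10, Syt12, Syt14 and Syt16, had log2 fold changes from -0.26 to 0.34 with overlapping groups. Syt10 was the extreme of these at 0.34, but its SE of 0.44 on 10 to 20 counts per library was larger than the difference.

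Stx1a, the syntaxin of the presynaptic membrane, was the member with the smallest unadjusted p. The gene lies at chr5:135023482-135051100 on the plus strand. It had 1575, 1752 and 1380 counts in the WAS replicates, and 2491, 2424 and 2143 counts in the control replicates. The highest WAS library, replicate 2 with 187 CPM, was below the lowest control library with 220 CPM. The means were 159 ± 25.8 CPM (SD, n = 3) and 231 ± 9.82 CPM (SD, n = 3), a log2 fold change of -0.54 (SE 0.11, unadjusted p = 0.000485, adjusted p = 0.477 by edgeR). Each fit without 1 library gave an unadjusted p under 0.05, with a log2 fold change between -0.67 (without WAS replicate 2) and -0.44 (without WAS replicate 3). Without WAS replicates 1 and 3 it was -0.31 (unadjusted p = 0.0115). The summed level of the cortex and hippocampus markers, 7 of 7 tested, was also lower in all 3 WAS libraries (1008 to 1074 against 1107 to 1274 CPM), with no overlap for 3 of the 7 genes taken singly, the lowest sum being that of WAS replicate 2, which also had the highest striatum sum. The part of these markers in the lower levels of Stx1a and Syt1 was not tested. The adjusted p was 0.0139 by DESeq2 and ran from 0.000862 to 0.9997 over all the settings tried.

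Stx18, a syntaxin of the endoplasmic reticulum, was the most abundant entry among the syntaxins at 452, 448 and 465 CPM in the WAS replicates against 432, 429 and 415 CPM in the control replicates. The groups did not overlap, with a log2 fold change of 0.098 (SE 0.074, unadjusted p = 0.212, adjusted p = 0.855). Its exons share 574 bases with Nsg1, a gene of neuronal endosomes on the other strand, which had 2505, 2263 and 2509 counts in the WAS replicates and 2412, 2336 and 2224 in the control replicates. The ratio of Stx18 to Nsg1 counts lay between 1.82 and 1.88 in all 6 libraries. Reads from the shared bases, 574 of the 4593 exonic bases of Stx18, cannot be told apart here.

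The other syntaxins serve endosomes, the Golgi apparatus, autophagosomes and the plasma membrane of many cells. Stx12, an endosomal syntaxin and the third in abundance, was at 111 ± 2.75 CPM (SD, n = 3) against 106 ± 6.95 CPM (SD, n = 3), a log2 fold change of 0.061. Stx3, found at ribbon synapses, in dendrites and in epithelia, had the highest log2 fold change of the family at 0.18 (SE 0.13, unadjusted p = 0.206, adjusted p = 0.847). Stx5a of the Golgi apparatus had the smallest in size at -0.012. Stx2, Stx4a, Stx6, Stx7, Stx8, Stx16 and Stx17 lay between -0.25 and 0.14 with unadjusted p-values of 0.0945 or more.

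Vamp2, the main VAMP of synaptic vesicles, had 6780, 5643 and 6090 counts in the WAS replicates and 7345, 6643 and 7814 counts in the control replicates. In CPM, WAS replicate 1 with 665 lay above control replicate 2 with 650, so that the groups overlapped by 1 library on each side. The means were 623 ± 35.7 CPM (SD, n = 3) and 717 ± 78.0 CPM (SD, n = 3), a log2 fold change of -0.20 (SE 0.093, unadjusted p = 0.0522, adjusted p = 0.688). Leaving out each library in turn moved it between -0.27 (without control replicate 2) and -0.11 (without control replicate 3). DESeq2 gave it an unadjusted p of 0.0481 (adjusted p = 0.788).

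Vamp1, the paralog of Vamp2 that prevails in brainstem, spinal cord and fast-spiking inhibitory neurons, had 2939, 1095 and 2609 counts in the WAS replicates. The control replicates had 1456, 1411 and 1176 counts. As for Syt2, WAS replicates 1 and 3 were far above the control libraries, and here WAS replicate 2, with 117 CPM, was the lowest of all 6. The gene lies at chr6:125215551-125245964 on the plus strand. The means of 221 ± 91.3 CPM (SD, n = 3) and 132 ± 10.1 CPM (SD, n = 3) gave a log2 fold change of 0.74 (SE 0.25, unadjusted p = 0.0122, adjusted p = 0.585). It was 0.50 without WAS replicate 1 (unadjusted p = 0.0559), 0.61 without WAS replicate 3 (unadjusted p = 0.0518) and 1.04 without WAS replicate 2 (adjusted p = 3.5e-05). Without WAS replicates 1 and 3 it was -0.18, so the direction itself rests on these 2 libraries. DESeq2 gave an unadjusted p of 0.0573.

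The remaining VAMPs act outside the synaptic vesicle. Vamp4, which works between endosomes and the trans-Golgi network, was at 66.4 ± 4.21 CPM (SD, n = 3) against 63.5 ± 1.23 CPM (SD, n = 3), a log2 fold change of 0.065. Vamp3, the VAMP of recycling endosomes, had a log2 fold change of -0.13, and Vamp8, of late endosomes and secretory granules, had one of 0.058, the smallest in the family. Vamp5 had 51, 39 and 53 counts in the WAS replicates and 22, 48 and 30 in the control replicates, a log2 fold change of 0.55 (SE 0.32, unadjusted p = 0.116, adjusted p = 0.775). The groups overlapped for all 4 genes.

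**Figure D3:**
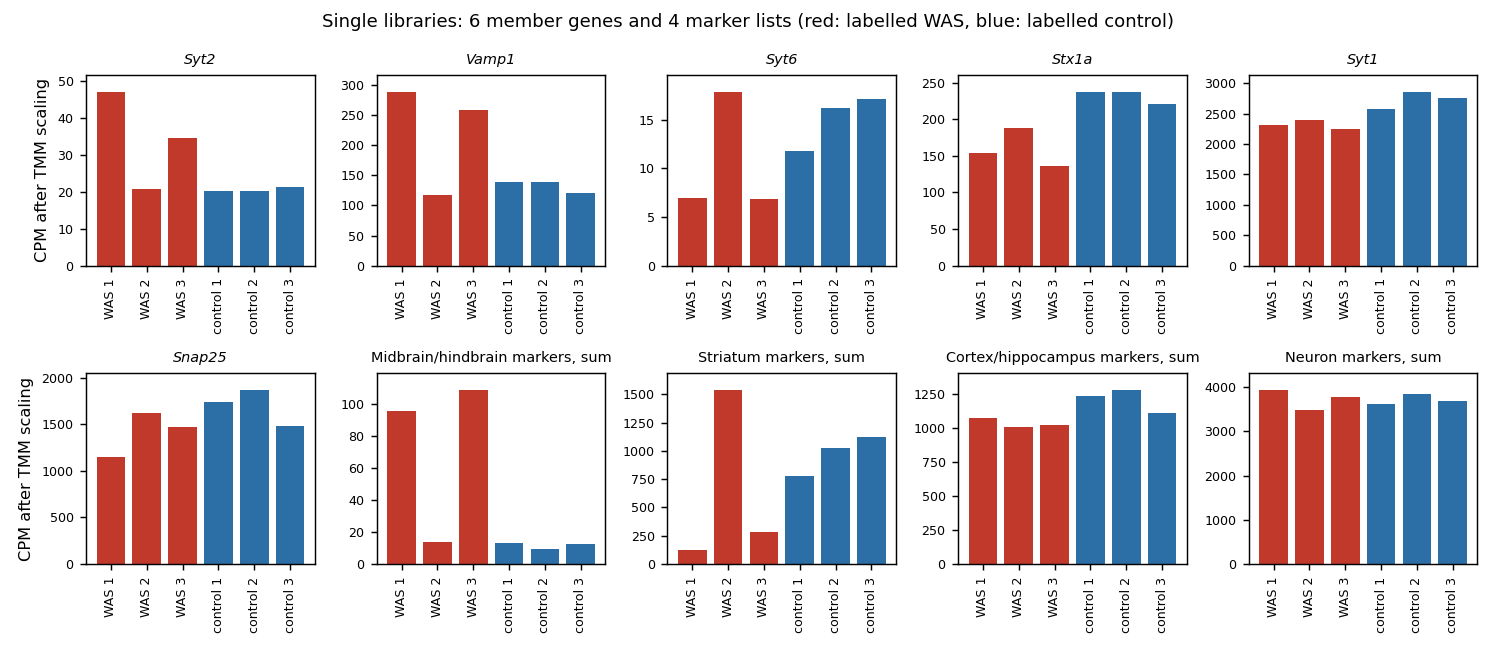
Level in CPM after TMM scaling (vertical axes from 0) in each of the 6 libraries for Syt2, Vamp1, Syt6, Stx1a, Syt1 and Snap25, and summed over 4 marker lists (red bars, labelled WAS; blue bars, labelled control). Syt2 and Vamp1 are high, and Syt6 low, in WAS replicates 1 and 3, which have midbrain and hindbrain sums of 95.6 and 108 CPM and the lowest striatum sums, whereas Stx1a and Syt1 are lower in all 3 WAS libraries.

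Markers of the neurons in which Syt2 and Vamp1 prevail were read beside them. The 6 markers of fast-spiking neurons, all of them tested, summed to 1033, 872 and 923 CPM in the WAS replicates and to between 889 and 952 CPM in the control replicates. Nefh, the heavy neurofilament of large projection and fast-spiking neurons, had 1905, 770 and 1765 counts in the WAS replicates and 1067, 960 and 1027 counts in the control replicates. Slc17a6, the vesicular glutamate transporter of thalamus and brainstem, had 1710, 284 and 1339 counts against 402, 304 and 273. Both were high in the same 2 libraries as Syt2 and Vamp1. Kcna1, a potassium channel gene of the fast-spiking list, was not, with 3770, 3738 and 3484 counts in the WAS replicates against 4559, 4666 and 3935, and its groups did not overlap (log2 fold change -0.22, SE 0.087, unadjusted p = 0.0293, adjusted p = 0.636). Nefh, Slc17a6 and Kcna1 were named after their values were seen. Thalamus and habenula markers, 8 of 8 tested, summed to 582 and 520 CPM in WAS replicates 1 and 3, and to between 325 and 341 CPM in the other 4 libraries. Tcf7l2 alone was at 231 and 171 CPM in WAS replicates 1 and 3, and at 20.9 to 41.5 CPM elsewhere. Of the 8 genes, 5 had a log2 fold change above 0. The 3 below 0 were Tac2 (-0.098), Nwd2 (-0.015) and Chrnb4 (-0.71, on 1 to 11 counts). The part of these markers in the levels of Syt2, Vamp1 and Syt6 was not tested.

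Snap25, the SNARE of the presynaptic membrane that pairs with Stx1a, had 11667, 15126 and 14858 counts in the WAS replicates and 18233, 19058 and 14436 counts in the control replicates. WAS replicate 1 was the lowest library and control replicate 3 lay between WAS replicates 3 and 2 in CPM, so that the groups overlapped. The means were 1410 ± 242 CPM (SD, n = 3) and 1694 ± 194 CPM (SD, n = 3), a log2 fold change of -0.26 (SE 0.13, unadjusted p = 0.0576, adjusted p = 0.698). Leaving out each library in turn moved it between -0.37 (without WAS replicate 2) and -0.14 (without WAS replicate 1), and without WAS replicates 1 and 3 it was -0.072. The unadjusted p by DESeq2 was 0.0341 (adjusted p = 0.698).

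The other SNAPs are the more widely expressed members. Snap47, second in abundance, was at 495 ± 37.5 CPM (SD, n = 3) against 471 ± 19.0 CPM (SD, n = 3), a log2 fold change of 0.071, and shares 307 exonic bases with Jmjd4 on the other strand. Snap29, which serves autophagosomes, had a log2 fold change of -0.012. Snap23, the SNAP of most non-neuronal cells, was at 6.72 ± 1.48 CPM (SD, n = 3) against 6.34 ± 1.23 CPM (SD, n = 3), a log2 fold change of 0.079 (SE 0.25). The last 500 bases of its longest transcript share stretches of 50 bases with transcripts of many other genes, so that its counts are uncertain where multiple alignments were counted, and the same holds for Stxbp2.

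All 7 syntaxin-binding proteins had log2 fold changes below 0, and none had an unadjusted p under 0.05, where 50.2% of all genes were above 0. For 3 of them the sign turned when 1 library was left out: Stxbp3 had 0.22 and Stxbp4 0.035 without WAS replicate 1, and Stxbp6 had 0.10 without WAS replicate 2. Stxbp5 (tomosyn), which competes with VAMP2 for the plasma membrane SNAREs, had a log2 fold change of -0.20 (SE 0.11, unadjusted p = 0.0843, adjusted p = 0.732), and the unadjusted p was 0.00786 without control replicate 3. Its relative Stxbp5l was at 168 ± 9.92 CPM (SD, n = 3) against 179 ± 12.7 CPM (SD, n = 3), a log2 fold change of -0.095.

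Stxbp2 (Munc18-2), known from immune cells and epithelia, had 194, 235 and 138 counts in the WAS replicates and 245, 280 and 216 counts in the control replicates. The log2 fold change of -0.34 (SE 0.20, unadjusted p = 0.114, adjusted p = 0.771) was the lowest of the family, with overlapping groups. It was -0.57 without WAS replicate 2 (unadjusted p = 0.00592) and 0.043 without WAS replicates 1 and 3. Stxbp3 (Munc18c) had the smallest at -0.0082, and Stxbp4 and Stxbp6 had -0.11 and -0.0088. The groups overlapped for these 3 genes too.

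Summed over all 44 members, the level was 10441, 10417 and 10363 CPM in the WAS replicates and 11249, 11490 and 10997 CPM in the control replicates. The groups did not overlap, with means of 10407 ± 40.0 CPM (SD, n = 3) and 11245 ± 247 CPM (SD, n = 3), a design in which the smallest two-sided p of an exact permutation test is 0.1. Most of this difference lay in a few abundant genes. The mean level in the WAS libraries minus that in the control libraries was -416 CPM for Syt1, -284 CPM for Snap25, -93.8 CPM for Vamp2 and -72.1 CPM for Stx1a, and it was 88.6 CPM for Vamp1. With Syt1 alone taken out, the sums were 8122, 8031 and 8123 CPM against 8666, 8635 and 8244 CPM and did not overlap. With Syt1 and Snap25 taken out they were 6979, 6413 and 6654 CPM against 6930, 6771 and 6761 CPM and overlapped. Which genes to take out was chosen after their values were seen.

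The synaptotagmins, syntaxins, VAMPs and SNAPs were each led by 1 or 2 genes. Syt1 held 45.6% of the synaptotagmin counts as a mean of the 6 libraries, Syt11 27.9%, Syt7 11.7% and Syt4 6.51%. Stx18 held 39.5% of the syntaxin counts and Stx1a 17.5%, which was 14.3%, 16.6% and 12.6% in the WAS replicates against 20.8%, 20.8% and 19.8% in the control replicates. Snap25 held 74.8% of the SNAP counts. Vamp2 held 71.1% of the VAMP counts, and Vamp1 held 27.5%, 14.3% and 26.7% in the WAS replicates and 14.8%, 15.7% and 11.8% in the control replicates.

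**Figure D4:**
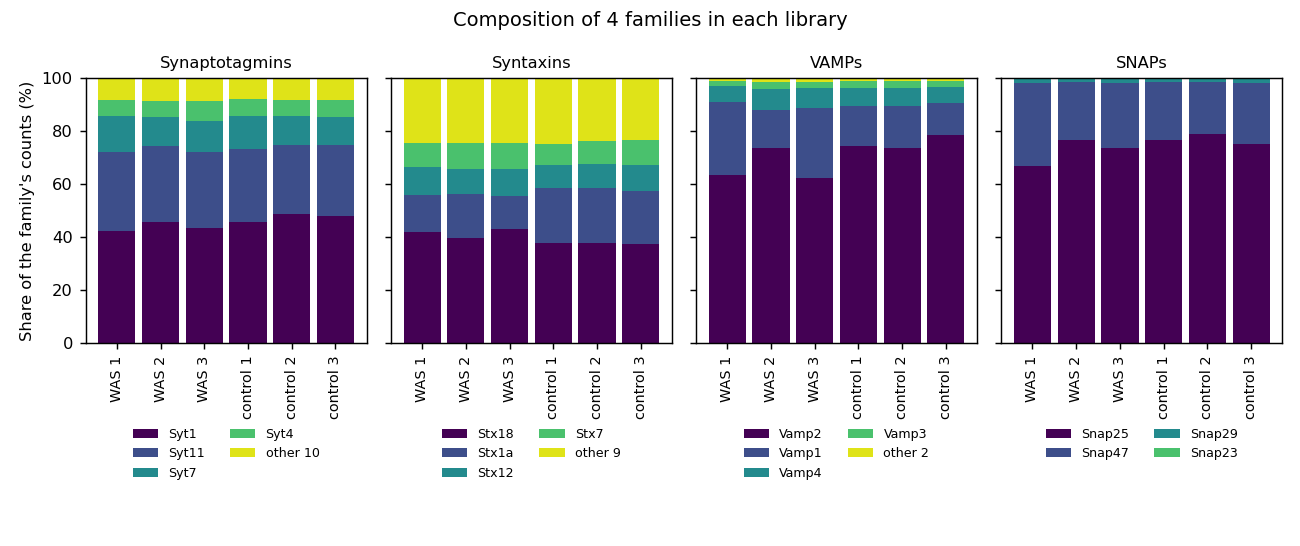
Share of the counts of 4 families (vertical axis, %) taken by each family's 4 most abundant members and by the others together, with 1 stacked bar per library. Vamp1 takes 27.5% and 26.7% of the VAMP counts in WAS replicates 1 and 3 against 11.8% to 15.7% in the other 4 libraries.

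The ratios between paralogs that replace each other at synapses showed the same libraries apart. The ratio of Vamp1 to Vamp2 counts was 0.433, 0.194 and 0.428 in the WAS replicates and 0.198, 0.212 and 0.150 in the control replicates. The ratio of Syt2 to Syt1 was 0.0202, 0.00874 and 0.0154 against 0.00785, 0.00709 and 0.00769. In WAS replicates 1 and 3 both ratios were above every other library, and in WAS replicate 2 the Vamp1 ratio was within the control range and the Syt2 ratio just above it. The ratio of Snap23 to Snap25 was 0.00557, 0.00516 and 0.00370 against 0.00444, 0.00320 and 0.00360, with overlap.

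The spread among libraries of 1 group also set the members apart. The SD within groups on the log2 scale was 0.60 for Syt6, 0.51 for Vamp1 and 0.42 for Syt2, but 0.030 for Stx18 and 0.033 for Syt13. This is the spread between libraries, 1 per mouse. The SD that counting alone would give was 0.034 for Vamp1 and 0.036 for Syt13, so that the 2 genes differed little in depth and widely in spread.

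Genes that work with these families were read from 4 lists. Among the fusion cofactors (complexins, Munc13 proteins, Doc2 proteins and relatives), 19 of 20 genes were tested, and 2 were higher and 2 lower at an unadjusted p under 0.05, beside 7.24% of all genes tested (3.85% higher and 3.40% lower). The median log2 fold change was -0.064. Unc13c, a Munc13 vesicle-priming protein, had 864, 947 and 1025 counts in the WAS replicates and 680, 640 and 691 in the control replicates. The WAS libraries were above all control libraries, with a log2 fold change of 0.53 (SE 0.10, unadjusted p = 0.000232, adjusted p = 0.477). Doc2b, a calcium sensor of spontaneous release, had 191, 163 and 186 counts against 133, 94 and 126, a log2 fold change of 0.65 (SE 0.17, unadjusted p = 0.00235, adjusted p = 0.498). Unc13a, the main Munc13 of excitatory synapses, was lower by a log2 fold change of -0.30 (SE 0.12, unadjusted p = 0.0298, adjusted p = 0.638). Unc13d, the fourth gene, had only 3, 2 and 1 counts against 5, 10 and 10. The most abundant, complexin Cplx2, had a log2 fold change of -0.13.

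Of 17 other SNAREs and Sec1/Munc18-like proteins of the endosome and Golgi apparatus, all tested, none had an unadjusted p under 0.05, and the median log2 fold change was -0.034. Their most abundant gene, Vti1b, had one of -0.13. Among active zone proteins and Rab3 effectors, 22 of 25 genes were tested, and 2 were higher and 3 lower at an unadjusted p under 0.05, beside the same 3.85% and 3.40% of all genes, with a median of -0.079. The scaffold genes Rims1 and Bsn had log2 fold changes of -0.40 (SE 0.12) and -0.25 (SE 0.097), and Rph3a, which encodes rabphilin, had one of -0.24 (SE 0.095). The vesicle GTPases Rab3c and Rab27a had 0.33 (SE 0.14) and 0.63 (SE 0.27), and the abundant Rab3a had 0.034. The 5 genes with an unadjusted p under 0.05 had adjusted p-values between 0.539 and 0.679.

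Among synaptic vesicle proteins, 20 of 21 genes were tested, and 2 were higher and 3 lower at an unadjusted p under 0.05, again beside 3.85% and 3.40% of all genes, with a median log2 fold change of 0.027. Syn1, which encodes synapsin-1, and Sv2b had log2 fold changes of -0.24 (SE 0.080) and -0.23 (SE 0.078). Slc17a7, the vesicular glutamate transporter of cortex and hippocampus, had 2323, 2403 and 2283 counts in the WAS replicates and 2845, 3090 and 3045 counts in the control replicates, a log2 fold change of -0.32 (SE 0.090, unadjusted p = 0.00454, adjusted p = 0.514). Syn2 had one of 0.31 (SE 0.094), and Slc17a6, described above, one of 1.78 (SE 0.44) that was -0.083 without WAS replicates 1 and 3. The most abundant gene of the list, Sv2a, had 0.13. In every list, 0 genes passed an adjusted p of 0.05 with edgeR, as was the case for the members.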

How the data were processed

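RNA was measured in 6 libraries, 3 labelled WAS and 3 labelled control. The deposited values are whole-number read counts per gene symbol, which the authors obtained from single reads of 75 bp by Bowtie2 alignment and Bedtools coverage, with reads that align to several places included. The submitters' processing notes name mm10. No column of another sample was present (0). The quantile normalization that the methods name is not contained in the deposited counts.

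The 15239 genes with a mean log2(quantile-normalized count + 1) of at least 2 entered the main test, edgeR's quasi-likelihood F-test (edgeR 4.0.16, R 4.3.3) on TMM-scaled counts (factors 0.976 to 1.01), with no replicate block and a prior count of 2. P-values were adjusted by Benjamini and Hochberg over all genes tested. Standard errors (SE) were derived from the F statistic. The common biological coefficient of variation was 14.0%. The ribosomal entry Rn45s took 4.96% to 7.32% of the counts. Counts carry no molecular identifiers, so counting error understates technical error. The labels call the samples biological replicates. The alternatives were DESeq2 size factors, the test of DESeq2 1.42.0, quantile-normalized log2 counts with limma 3.58.1, 2 other filters on low counts (at least 10 in every library, or none), the replicate block, and each library left out. Leaving out WAS replicates 1 and 3 together was added after the data were seen, and the lone WAS library was then assumed to vary like the control libraries.

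The members and lists were chosen with earlier results of these data known. Named were, per family, the 3 most abundant members, the largest and smallest log2 fold changes, members with an unadjusted p under 0.05 or groups that did not overlap, the genes of the ratios given, the members nearest to the limit of 10 counts, and, per list of partner genes, those with an unadjusted p under 0.05 and the most abundant. Other members are named to account for them, and values of 2 single members are not reported here. Gene positions and exon overlaps come from GENCODE M21, and promoters from a RefSeq table.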

Additional observations from a re-analysis of the deposited data

How the results depend on the processing

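Depth and 3 libraries per group limit the low members most. The 95% interval of the log2 fold change ran from -0.63 to 1.31 for Syt10, with 10 to 20 counts per library, and from -0.40 to -0.0788 for Syt1. Of 558 values of 43 named genes under 13 alternatives, 521 kept their direction and side of the adjusted threshold, 14 newly passed it and 23 turned in sign. The cause of these shifts was not tested.

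In place of 0 genes past an adjusted p of 0.05, DESeq2 gave 22, the replicate block 49, and leaving out WAS replicates 1 and 3 gave 1. Of the members, DESeq2 and the replicate block each placed 1, Stx1a, past it. Libraries that share a number were only weakly alike (correlations of deviations 0.066, 0.085 and 0.087), although each WAS library correlated best with the control of its own number. Whether the numbers pair the libraries was not settled by these values. Members with an unadjusted p under 0.05 were 9 of 44 under the replicate block, beside 1428 of 15239 genes, and 1 without WAS replicates 1 and 3, beside 814 of 15241. With a fold change of 1.5 added, they were 1 by DESeq2, beside 299 genes, and 0 without WAS replicates 1 and 3, beside 351. That omission put the median log2 fold change of all members at -0.040, of SNAPs at -0.040, of syntaxins at -0.011 and of VAMPs at -0.071.

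With each library left out in turn, genes past an adjusted p ranged from 0 to 491 (without WAS replicate 2), genes with an unadjusted p under 0.05 from 623 (without control replicate 2) to 2084, and those that also had a fold change of 1.5 from 264 to 825. Members past an adjusted p ranged from 0 to 4 (Stx1a, Syt2, Syt6 and Vamp1 without WAS replicate 2), members with an unadjusted p under 0.05 from 3 to 9, and those with the fold change from 0 (without WAS replicate 1) to 4. The median log2 fold change ranged from -0.066 to -0.017 over all members, from -0.054 to 0.028 for SNAPs and from -0.029 to 0.059 for syntaxins.

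Genes that turned in sign were mostly near 0. Leaving out each library in turn gave log2 fold changes from -0.049 to 0.017 for Syt11, which was 0.029 on quantile-normalized counts. They ran from -0.065 to 0.026 for Snap29, from -0.10 to 0.25 for Snap23, from -0.16 to 0.22 for Stxbp3, from -0.17 to 0.050 for Syt7 and from -0.034 to 0.087 for Rab3a. Without WAS replicates 1 and 3 together, Stxbp3 was 0.26, Rab3a -0.081, Snap47 -0.046, Stxbp2 0.043, Syt6 0.24, Vamp1 -0.18, Cplx2 0.19, Vti1b 0.027 and Slc17a6 -0.083.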

Other observations

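Markers of cells in which Snap23, Stxbp2, Vamp3 and other non-synaptic members are known were read in the same libraries. Astrocyte markers, 7 of 7 tested, summed to between 1539 and 1763 CPM in the WAS libraries and between 1442 and 1575 CPM in the control libraries. Of these, 2, Aqp4 and Aldoc, were on the higher side at an unadjusted p under 0.05, beside 3.85% of all genes tested. For both, WAS replicate 2 (79.2 and 684 CPM) lay within the control range (70.2 to 87.2 and 628 to 699 CPM). By log2 fold change 5 of the 7 were above 0, and 2 below, Slc1a3 (-0.11) and Aldh1l1 (-0.0013). Oligodendrocyte markers, 7 of 7 tested, spanned 5134 to 7109 CPM against 5565 to 6415 CPM, and microglia markers, also 7 of 7, spanned 295 to 346 CPM against 316 to 367 CPM, with no gene at an unadjusted p under 0.05. The 6 choroid plexus markers, which come from the lining of the ventricles, differed most within groups as a ratio of highest to lowest library. They ran from 52.2 to 1181 CPM in the WAS libraries and from 16.8 to 1242 CPM in the control libraries. Their library order (low in WAS replicate 1 and control replicate 2) was not that of Syt2, Vamp1 or Syt6.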
